A study of Mus musculus with 6 samples.

Results

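Lipid synthesis enzymes were measured on 2-colour arrays of cultured mouse airway smooth muscle (ASM) cells, and 4 of them are described here. These are Idi1 and Sqle, which act in sterol synthesis, and Fads1 and Acaca, which act on fatty acids. Their probes were found through the platform annotation, which gives each of the 4 symbols to 1 of the 8734 probes in the table. The 4 genes are among 5644 gene symbols, and 6807 rows in all, that entered the statistical fit.

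Each of the 6 arrays set RNA of 2AR-OE cells against RNA of NTG cells. The 2AR-OE cells came from tracheas of mice made to overexpress beta2-adrenergic receptors, which signal through cyclic AMP, and the NTG cells from tracheas of nontransgenic mice. The study asked what lasting activity of this receptor does to gene expression in ASM. Cultures of both genotypes grew out of tracheal explants in medium with 20% fetal serum, RNA was taken between passages 8 and 10, and the labels state that above 90% of the cells stained for smooth muscle actin; the promoter that drives the transgene, the strain and the ages of the mice are not stated in the sources used here. On arrays 1A, 1B, 2A and 2B the 2AR-OE RNA carried the red dye Cy5 and the NTG RNA the green dye Cy3, and on arrays 1C and 2C the dyes were exchanged. Arrays with the same number are called a set below, since the labels explain neither the numbers nor the letters. Nothing states that arrays came from separate cultures or animals, so every error below is a spread between arrays and may be technical.

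Each value is a deposited log2 ratio of the 2 RNAs on an array. It says how the samples differ and not how abundant a transcript is, so levels of different genes cannot be set against each other. The ratio is likely 2AR-OE over NTG, because channel 1 of the 4 arrays with the more frequent dye orientation holds the 2AR-OE RNA. Titles of those arrays name NTG first, however, and if the ratio runs the other way every sign below turns. The columns of 1C and 2C were taken as already turned to that direction. The correlation over probes was 0.313 to 0.697 among the 7 pairs of arrays with the same orientation and 0.00887 to 0.179 among the 8 pairs with opposite orientation. If 1C and 2C were not turned, the fitted ratios below would be dye effects, and the transgenic ratios would be 0.10 for Idi1, -0.15 for Sqle, 0.15 for Fads1 and 0.06 for Acaca. The arrays held values for 8495 to 8555 probes, with array medians near 0 and standard deviations of 0.467 to 0.608 on 5 arrays and 1.04 on 1C. Array 1C also had 63 probes at the lowest value of the table, a ratio of 0.01, against 0 to 10 on the others.

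Cells make cholesterol and isoprenoids from acetyl-CoA through the mevalonate pathway. Idi1 encodes isopentenyl-diphosphate isomerase, which makes the allylic isoprenoid from which farnesyl diphosphate is built, and Sqle encodes squalene epoxidase, which carries out the first oxygen-dependent step towards sterols and is a point of flux control. Acaca encodes acetyl-CoA carboxylase, the cytosolic enzyme that makes malonyl-CoA, the building block that fatty acid synthase uses. Fads1 encodes the fatty acid desaturase that makes arachidonic and eicosapentaenoic acids from less desaturated precursors. The transcription factor SREBP-2 drives genes of sterol synthesis when membrane sterol is low, SREBP-1 those of fatty acid synthesis, and protein kinase A and AMP-activated kinase act on several of these enzymes as proteins. Membrane cholesterol of smooth muscle is concentrated in caveolae, and arachidonic acid is the precursor of the prostaglandins that ASM releases.

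Idi1, Sqle and Fads1 had positive ratios on 6 of 6 arrays and Acaca had negative ratios on 6 of 6 arrays. The 4 genes were chosen by their ratios in this same contrast of these 6 arrays, so those ratios describe them and support nothing. Fitted ratios come from limma with a dye coefficient over the 6 arrays, are given with their standard errors, and count as past the threshold where the Benjamini-Hochberg adjusted p over all 6807 rows was under 0.05. By that count 3 of the 4 genes passed, all with positive ratios, beside 7.11% of all rows in either direction, 4.03% with positive and 3.09% with negative ratios. At an unadjusted p under 0.05, 27.7% of all rows passed (1888 of 6807), against which the unadjusted counts below are to be read. Nothing is read from that comparison, since the contrast chose the genes.

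**Figure D1:**
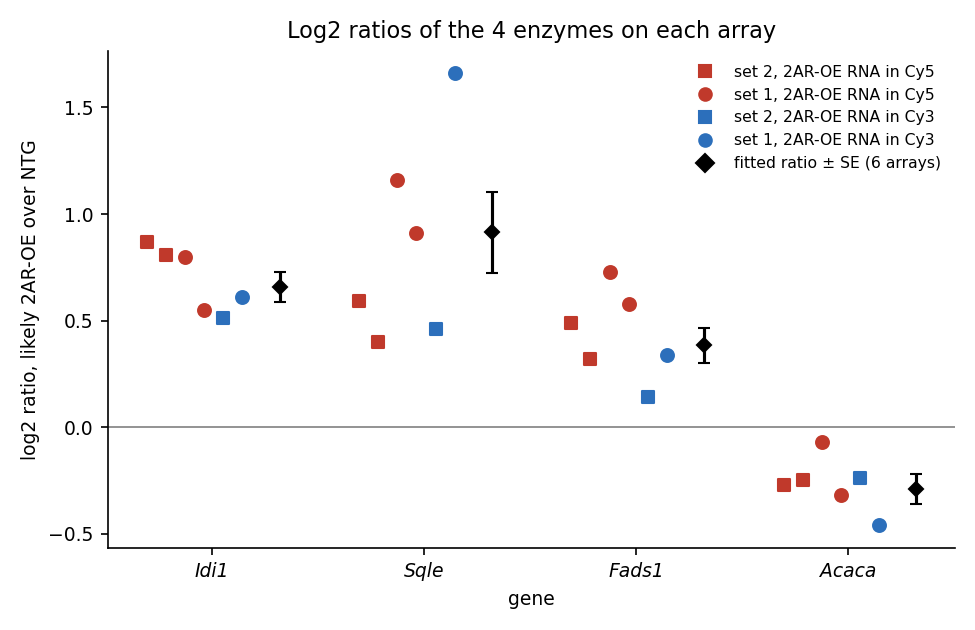
Log2 ratio (likely 2AR-OE over NTG, y axis) of Idi1, Sqle, Fads1 and Acaca (x axis) on each of the 6 arrays. Colours give the dye of the 2AR-OE RNA, shapes the set, and black diamonds the fitted ratio with its standard error. Sqle is widely spread, from 0.40 to 1.66, with all 3 arrays of set 2 below all 3 of set 1, while Acaca stays between -0.46 and -0.07.

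Idi1 stood at 0.80, 0.55, 0.87 and 0.81 on arrays 1A, 1B, 2A and 2B, where 2AR-OE RNA carried Cy5, and at 0.61 and 0.51 on arrays 1C and 2C, where it carried Cy3. The values lie close together, with array 2A highest and 2C lowest, and both arrays with exchanged dyes fall within or just below the range of the other 4. The fitted log2 ratio of Idi1 was 0.66 ± 0.07 (1.58-fold, n = 6), with a 95% interval of 0.48 to 0.83. The gene ranked 296th from the top of the 6807 rows. Its SD over arrays, 0.154, was larger than that of 15.6% of rows, and the median SD of rows was 0.286. Within single arrays the Idi1 probe lay above 81.2% of probes on 1C, the array with the widest spread, and above 98.1% on 2B.

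Sqle gave 1.16, 0.91, 0.59 and 0.40 on 1A, 1B, 2A and 2B (2AR-OE in Cy5) and 1.66 and 0.46 on 1C and 2C (2AR-OE in Cy3). The 3 low values are those of set 2 and the 3 high values those of set 1, in both dye orientations. The fitted log2 ratio of Sqle was 0.91 ± 0.19 (1.88-fold, n = 6), with a 95% interval of 0.45 to 1.38, the largest ratio of the 4 genes over all 6 arrays and their widest interval. It ranked 111th from the top, and its SD of 0.485 exceeded that of 76.6% of rows. Within single arrays the probe lay above 90.6% of probes on 2C and above 98.0% on 1A. Leaving out array 1C, where Sqle was highest, brought the fitted ratio to 0.61, below the 0.63 of Idi1 in that fit, and leaving out 2C brought it to 1.21. Sqle did not pass the threshold without 1A, 1B, 2A or 2B. It did not pass with the set number as a random replicate block either (adjusted p = 0.0930 by limma). Fits without 1C or 2C leave 1 array with 2AR-OE RNA in Cy3 and do not count its error, so only their ratios are used.

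Fads1 gave 0.73, 0.58, 0.49 and 0.32 on 1A, 1B, 2A and 2B (2AR-OE in Cy5) and 0.34 and 0.14 on 1C and 2C (2AR-OE in Cy3). Set 2 tended to lie below set 1 but the sets overlap, and in each set the array with exchanged dyes was the lowest. The fitted log2 ratio of Fads1 was 0.38 ± 0.08 (1.30-fold, n = 6), with a 95% interval of 0.19 to 0.58. It ranked 777th from the top, above 88.6% of rows, so a sizeable share of the table had larger positive ratios. Fads1 also did not pass without 1A, 1B, 2A or 2B, nor with the replicate block (adjusted p = 0.109 by limma). Idi1 passed in each of those fits and with the block (adjusted p = 0.0305 by limma). Whichever array was left out, the ratio of Idi1 was 0.63 to 0.69.

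Acaca gave -0.07, -0.32, -0.27 and -0.25 on 1A, 1B, 2A and 2B (2AR-OE in Cy5) and -0.46 and -0.24 on 1C and 2C (2AR-OE in Cy3). Array 1A was nearest to 0 and 1C farthest from it, and the other 4 arrays lay between -0.32 and -0.24. The fitted log2 ratio of Acaca was -0.29 ± 0.07 (1.22-fold lower, n = 6), with a 95% interval of -0.46 to -0.12. Acaca did not pass the threshold over all 6 arrays or without 1A, 1B, 2A or 2B, and was at -0.34 without 2C. It ranked 926th from the bottom of the rows, and its SD of 0.129 was larger than that of 9.65% of rows, the smallest spread of the 4 genes. Each of the 4 genes rests on 1 probe, and whether a probe also binds a related transcript, such as that of Acacb for Acaca, was not tested.

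The dye coefficient asked whether a gene gave another ratio when the dyes were exchanged, which the choice of the genes did not use. Over all rows 0.0147% passed for dye (1 of 6807, and 1242 at an unadjusted p under 0.05), and of the 4 genes 0 passed. The mean log2 ratio with 2AR-OE RNA in Cy5 (n = 4) and in Cy3 (n = 2) was 0.758 and 0.557 for Idi1, 0.765 and 1.06 for Sqle, 0.531 and 0.237 for Fads1, and -0.226 and -0.351 for Acaca. For Sqle the Cy3 mean was the higher, and for Idi1, Fads1 and Acaca the Cy5 mean. The dye coefficient, that difference of means divided by 2, was 0.10 ± 0.07 for Idi1 (95% interval -0.07 to 0.27, adjusted p = 0.463) and -0.15 ± 0.19 for Sqle (-0.61 to 0.31, adjusted p = 0.683). It was 0.15 ± 0.08 for Fads1 (-0.05 to 0.34, adjusted p = 0.365) and 0.06 ± 0.07 for Acaca (-0.11 to 0.24, adjusted p = 0.641).

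The difference of set 2 minus set 1 asked whether the ratio depended on the set. The genes were not chosen on it either, but again the same arrays were used, so it is no independent check. By limma 0% of rows passed (0 of 6807, with 1616, or 23.7%, at an unadjusted p under 0.05), and so 0 of the 4 genes passed. Sqle averaged 0.484 ± 0.0942 in set 2 and 1.24 ± 0.384 in set 1 (SD, n = 3 arrays each), and its sets did not overlap. How many of all rows have sets without overlap was not counted, so nothing particular to Sqle is read from this. Its difference was -0.76 ± 0.18 (95% interval -1.25 to -0.27), with an unadjusted p of 0.0109 and an adjusted p of 0.103 by limma. An exact permutation test of 3 arrays against 3 could not give a p below 0.1, so none was run. Fads1 averaged 0.314 ± 0.174 in set 2 and 0.551 ± 0.201 in set 1 (difference -0.24 ± 0.10, interval -0.49 to 0.02, adjusted p = 0.235 by limma). Idi1, with 0.730 ± 0.196 in set 2 and 0.652 ± 0.128 in set 1, differed by 0.08 ± 0.12 (-0.23 to 0.39, adjusted p = 0.714 by limma). Acaca, with -0.253 ± 0.0188 in set 2 and -0.282 ± 0.201 in set 1, differed by 0.03 ± 0.12 (-0.29 to 0.35, adjusted p = 0.901 by limma). The spread of Acaca came from set 1, since its 3 arrays of set 2 differed by little.

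**Figure D2:**
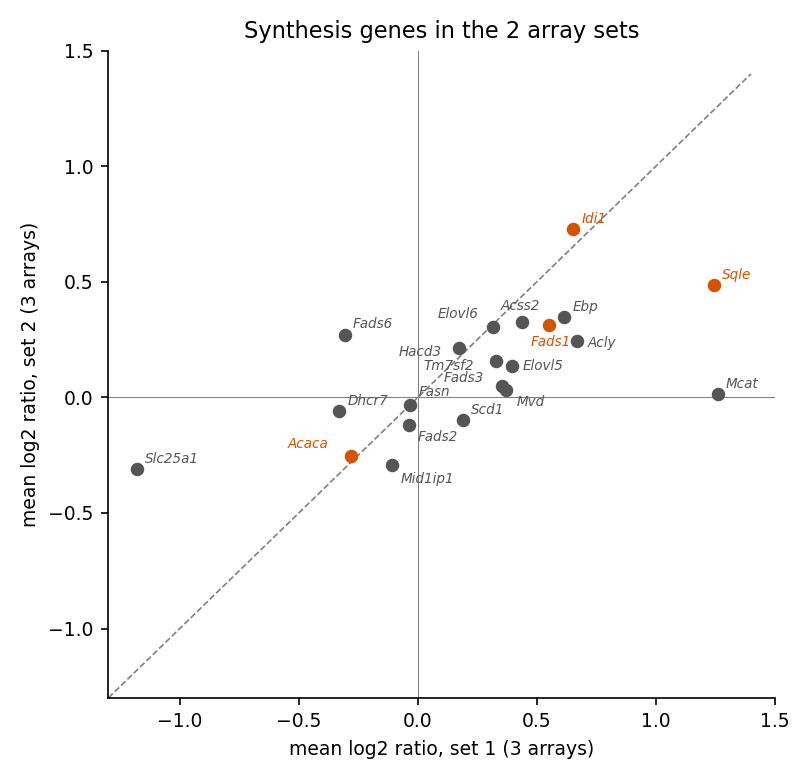
Mean log2 ratio (likely 2AR-OE over NTG) in set 2 (y axis, 3 arrays) against set 1 (x axis, 3 arrays) for the 21 measured genes of sterol and fatty acid synthesis, with the 4 enzymes in orange. The dashed line marks equal means. Idi1 and Acaca lie near the line, Fads1 below it, and Sqle far below it at 0.484 in set 2 and 1.24 in set 1.

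The other synthesis genes lay on both sides of equality. Of the 17 measured genes of sterol and fatty acid synthesis other than the 4 enzymes, 12 had a lower ratio in set 2 than in set 1, where 57.0% of all rows did, and the median difference was -0.174 beside -0.0591 over all rows. Of the 17, limma gave 0 past the adjusted threshold and 5 with an unadjusted p under 0.05, 2 of them lower and 3 higher in set 2. Acly, ATP citrate lyase, which supplies cytosolic acetyl-CoA, averaged 0.245 in set 2 and 0.671 in set 1 (difference -0.43 ± 0.10, adjusted p = 0.10 by limma), and Mvd also had a negative difference (-0.34 ± 0.12). The 3 with a positive difference were Fads6 (0.58, adjusted p = 0.0724 by limma, the lowest of the 17), Slc25a1 (0.87) and Dhcr7 (0.27). Fads6 was named here after its value was seen. Among the regulators, Srebf1, which encodes SREBP-1, averaged -0.029 in set 2 and 0.579 in set 1 (difference -0.61 ± 0.12, adjusted p = 0.0844 by limma).

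Sterol synthesis was covered by 6 of the 22 genes listed for it. Of these 6, the 2 that rose were Idi1 and Sqle themselves; 5 of 6 fitted ratios were positive and their median was 0.398, beside 0.0018 over all rows. Without the 2 chosen genes, 0 of the remaining 4 passed (3 at an unadjusted p under 0.05 by limma), 3 were positive and the median was 0.257. Mvd, mevalonate diphosphate decarboxylase, the step just before Idi1, had a ratio of 0.25 ± 0.10 (adjusted p = 0.175), and its probes gave 0.41 and 0.10. Tm7sf2, a sterol reductase that acts after lanosterol, had 0.26 ± 0.08 (adjusted p = 0.119), with -0.05, 0.13, 0.31 and 0.64 at its 4 probes. Ebp, a sterol isomerase of the late pathway, had 0.54 ± 0.21 (adjusted p = 0.160) and was at -0.32 on array 1B, the 1 array below 0. Dhcr7, the reductase that forms cholesterol, had -0.19 ± 0.08 (adjusted p = 0.211), the 1 negative ratio of the 6. Without array 1C Dhcr7 was at -0.08 and Mvd at 0.13. The median of the 6 genes was positive on every array, from 0.129 on 1B to 0.634 on 1C, but it includes Idi1 and Sqle. On 1B the remaining 4 were at 0.10 for Mvd, 0.16 for Tm7sf2, -0.32 for Ebp and -0.30 for Dhcr7. On 2A they were at -0.13, 0.10, 0.35 and -0.13 in that order.

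**Figure D3:**
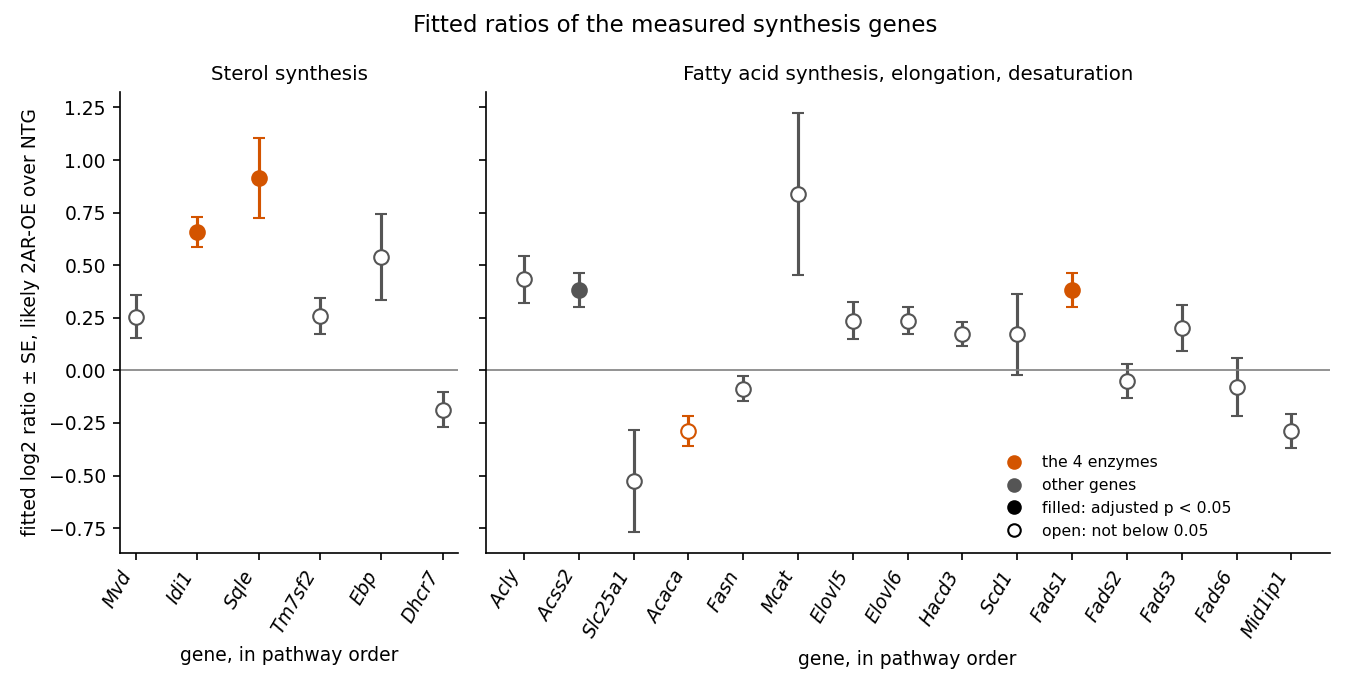
Fitted log2 ratio (likely 2AR-OE over NTG, y axis, with standard error over 6 arrays) of the measured genes of sterol synthesis (left) and of fatty acid synthesis, elongation and desaturation (right), in pathway order. Filled points passed adjusted p under 0.05 and orange points are the 4 enzymes. Sterol genes lie above 0 but for Dhcr7, while fatty acid genes lie on both sides, with Slc25a1 at -0.53 and Mcat at 0.84 at the ends.

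Fatty acid genes went both ways around Fads1 and Acaca. Of 32 genes listed, 15 were measured; Fads1 and Acss2 rose, 0 fell, 9 ratios were positive and the median was 0.174. Without Fads1 and Acaca, 1 of 13 passed (7.69%), close to the 7.11% of all rows, and 6 had an unadjusted p under 0.05 by limma. Acss2, the cytosolic synthetase that makes acetyl-CoA from acetate, gave 0.48, 0.25, 0.45 and 0.34 on 1A, 1B, 2A and 2B (2AR-OE in Cy5) and 0.58 and 0.19 on 1C and 2C (2AR-OE in Cy3). It was positive throughout, with no gap between the dye orientations. The fitted ratio of Acss2 was 0.38 ± 0.08 (1.30-fold, adjusted p = 0.0467 by limma), a call lost without 1A, 1B, 2A or 2B. Acly did not pass, at 0.43 ± 0.11 (adjusted p = 0.0751 by limma). It was at 0.28 without array 1C and at 0.59 without 2C.

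Of 4 further genes tied to malonyl-CoA or its precursors, 0 passed, beside 7.11% of all rows. Acss2, which passed, and Acly also supply acetyl-CoA and are given above. Slc25a1, the mitochondrial citrate carrier upstream of it, had -0.53 ± 0.24 (adjusted p = 0.218), and single arrays ran from -2.24 on 1B to 0.36 on 2C. Fasn, fatty acid synthase, which uses the malonyl-CoA that Acaca makes, had -0.09 ± 0.06 (adjusted p = 0.377), with small positive values in Cy5 and negative ones in Cy3. Mid1ip1, a protein that promotes polymerisation of acetyl-CoA carboxylase, had -0.29 ± 0.08 (adjusted p = 0.0907). Mcat, the malonyl transferase of the mitochondrial pathway, had 0.84 ± 0.39 (adjusted p = 0.218), a value set by 2.95 on array 1C, since without that array it was 0.08.

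Relatives of Fads1 did not pass. Fads2 and Fads3, the desaturase genes that neighbour Fads1 on the chromosome in RefSeq's annotation, had -0.05 ± 0.08 (adjusted p = 0.705) and 0.20 ± 0.11 (adjusted p = 0.279). Whether Fads1 differed from either was not tested. Elovl5, an elongase that works on the same polyunsaturated series, had 0.24 ± 0.09 (adjusted p = 0.148), and Elovl6, which extends saturated chains, had 0.24 ± 0.06 (adjusted p = 0.0791). Scd1, the desaturase that makes oleic acid, had 0.17 ± 0.19 (adjusted p = 0.581); its probes gave -0.24 and 0.59, the second with 2.89 on array 1C, and without that array Scd1 was at -0.18.

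Promoters are shown for Idi1 and for Acss2, the synthesis gene past the threshold outside the 4 enzymes. They are given since SREBP acts with the factors NF-Y and Sp1 near gene starts. RefSeq's promoter table (GRCm38.p6) matched 2 of the 4 enzymes, Idi1 and Acaca; the Acaca window lies at an internal start of the gene, held 0 of the motifs searched and is not shown. Each sequence is the + strand of the 250 bases before the RefSeq start, Idi1 at chr13:8885356-8885605 and Acss2 at chr2:155517793-155518042. Capitals mark CCAAT, the NF-Y motif, and GGGCGG, the Sp1 motif, here read on the opposite strand.

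Idi1: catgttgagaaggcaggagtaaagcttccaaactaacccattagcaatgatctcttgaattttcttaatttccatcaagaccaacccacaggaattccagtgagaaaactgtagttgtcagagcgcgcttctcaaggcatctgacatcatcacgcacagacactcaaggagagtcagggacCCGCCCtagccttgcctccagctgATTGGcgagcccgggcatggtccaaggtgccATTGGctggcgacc

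Acss2: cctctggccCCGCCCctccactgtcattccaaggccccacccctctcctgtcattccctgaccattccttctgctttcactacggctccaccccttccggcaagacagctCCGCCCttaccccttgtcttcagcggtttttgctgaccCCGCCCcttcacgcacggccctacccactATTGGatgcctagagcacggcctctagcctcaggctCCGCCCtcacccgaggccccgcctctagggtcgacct

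In the Idi1 window CCAAT lies 45 to 41 and 14 to 10 bases before the start and GGGCGG 69 to 64 bases before it. In the Acss2 window CCAAT lies 73 to 69 bases before the start, and GGGCGG occurs at 4 places, from 241 to 236 to 37 to 32 bases before it. On either strand, CCAAT was in 33.8% and GGGCGG in 32.7% of all 32851 windows of the table, so a match is common. TCACNCCAC, a core of the sterol regulatory element, CACGTG, an E-box, and TGACGTCA, the cyclic AMP response element, were in 1.05%, 6.02% and 1.55% of windows, and in neither of the sequences shown. Of the 5 measured sterol synthesis genes with a window, 5 held CCAAT and 5 held GGGCGG, and of the 12 such fatty acid genes 6 and 8 did, with TCACNCCAC in 0 of either group. A gene counted if any of its windows matched, while the shares above are per window. The 5 sterol genes, Idi1 among them, had 7 windows. These are matches of letters only and no binding was measured.

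Regulators of the pathway were close to 0 or uneven. Of 24 genes of SREBP and liver X receptor control, 11 were measured, 0 passed (2 at an unadjusted p under 0.05 by limma) and the median was 0.036. Srebf2, which encodes SREBP-2, had 0.15 ± 0.08 (adjusted p = 0.278), and Srebf1 had 0.20 ± 0.15 (adjusted p = 0.402) with 0.79 and 0.80 on arrays 1A and 1B and -0.16 to 0.15 on the other 4. Erlin1, an endoplasmic reticulum protein that holds back SREBP activation, came nearest to the threshold at 0.27 ± 0.06 (adjusted p = 0.0532), and its probe 850821, tested alone, had 0.40 ± 0.06 (adjusted p = 0.0198). Spring1, a protein needed for SREBP processing, had 0.28 ± 0.16, set by 1.09 on array 1C (-0.01 without it), and Rxra, the partner of liver X receptors, had -0.32 ± 0.17. The degradation factor Marchf6, which targets squalene epoxidase protein for breakdown, had -0.10 ± 0.06 (adjusted p = 0.335).

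**Figure D4:**
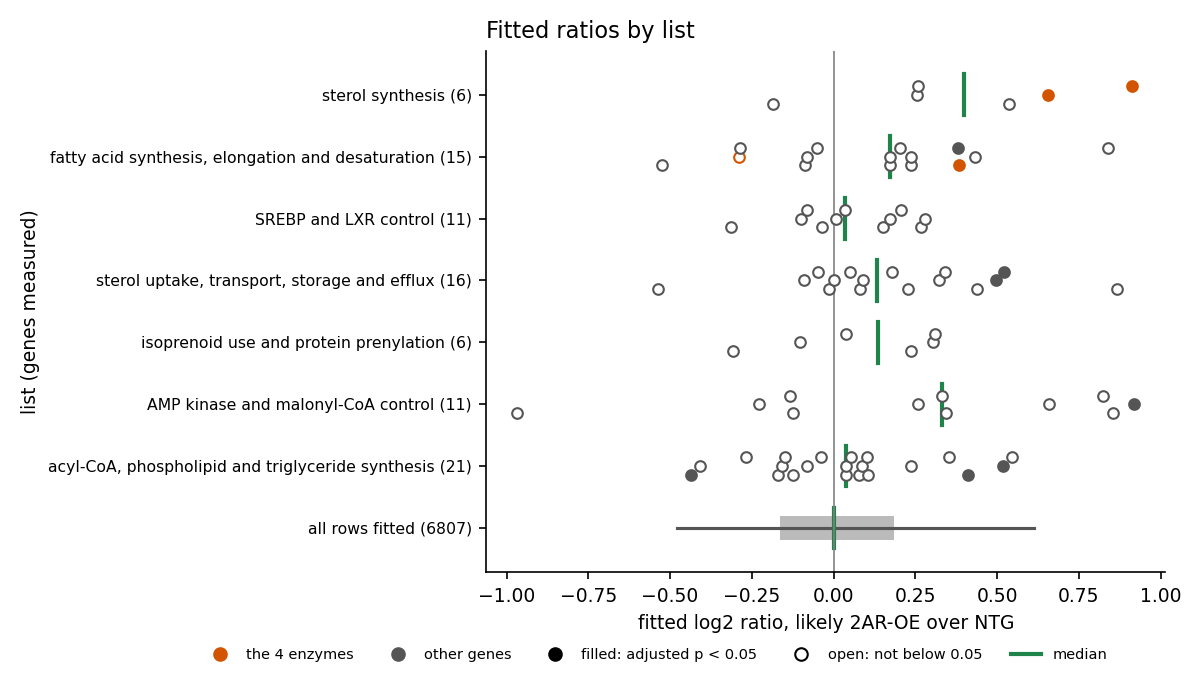
Fitted log2 ratio (likely 2AR-OE over NTG, x axis) of every measured gene of the 7 lipid lists (y axis, number of genes in brackets), with the median of each list as a green line. Filled points passed adjusted p under 0.05 and orange points are the 4 enzymes; in the lowest row the bar spans the 25th to 75th percentile of all rows, -0.16 to 0.18, and the line the 5th to 95th, -0.48 to 0.61. Idi1 and Sqle lie above that 95th percentile, while Fads1 and Acaca lie inside the range.

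Genes that take up or release sterol gave 2 calls. The arrays measured 16 of 32 listed genes, with a median of 0.134. Of these 2 rose and 0 fell (12.5%, beside 7.11% of all rows), and 6 had an unadjusted p under 0.05 by limma. Vldlr, the very low density lipoprotein receptor, a relative of the LDL receptor, rose (0.50 ± 0.07, adjusted p = 0.0160), with 0.38 to 0.72 on single arrays. Lipa, the lysosomal acid lipase that frees cholesterol and fatty acids from lipoproteins, rose (0.52 ± 0.07, adjusted p = 0.0119), with 0.47 and 0.58 at its probes. Nceh1, a cholesteryl ester hydrolase, had a larger ratio, 0.87 ± 0.21, without passing (adjusted p = 0.0692). Cav1, the coat protein of caveolae, had -0.54 ± 0.12 (adjusted p = 0.0560), and Gramd1a, a sterol transporter, -0.09 ± 0.14. Of 6 measured isoprenoid and prenylation genes, which use what Idi1 makes, 0 passed (2 at an unadjusted p under 0.05 by limma), with a median of 0.137; they ran from -0.31 ± 0.09 for Chm to 0.31 ± 0.10 for Fnta, a subunit of farnesyl and geranylgeranyl transferases, with Rabggtb at 0.30 ± 0.17 and Coq2 at -0.10 ± 0.12. Without array 1C Rabggtb was at 0.0092 and Chm at -0.18, and without 2A Coq2 was at -0.03.

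The product of Acaca, malonyl-CoA, blocks Cpt1a, the carnitine palmitoyltransferase that admits fatty acids to mitochondria. Cpt1a had 1.54, 1.42, 0.92 and 0.96 on 1A, 1B, 2A and 2B (2AR-OE in Cy5) and 0.59 and 0.67 on 1C and 2C (2AR-OE in Cy3). The values in both orientations were well above 0, lower with 2AR-OE RNA in Cy3. Cpt1a rose (0.92 ± 0.11, 1.89-fold, adjusted p = 0.0103 by limma), with 0.88 and 0.96 at its probes. It was the 1 of 11 measured genes of AMP kinase and malonyl-CoA control to pass (9.09%, beside 7.11% of all rows). The median of the list was 0.332, and 6 of the 11 had an unadjusted p under 0.05 by limma. Stk11, the kinase that activates AMP kinase, had 0.85 ± 0.36, with 2.04 on 1A and 1.88 on 1C and 0.08 to 0.38 on the others; without 1C it was at 0.44. Prkaa1, a catalytic subunit of AMP kinase, which phosphorylates acetyl-CoA carboxylase, had -0.97 ± 0.28 (adjusted p = 0.0964), and 1 of its probes had the floor value on 1C; it was at -0.47 when floor values were left out and at -0.45 without 1C. Cab39, a partner of Stk11, had -0.23 ± 0.09.

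Genes that place fatty acids in phospholipid and triglyceride gave calls in both directions. The arrays measured 21 of 48 listed genes, with a median of 0.038. Of these 2 rose and 1 fell (14.3%, beside 7.11% of all rows), and 6 had an unadjusted p under 0.05 by limma. Lpin1, the phosphatidate phosphatase lipin 1, rose (0.41 ± 0.07, adjusted p = 0.0271), as did Cds2, a CDP-diacylglycerol synthase (0.52 ± 0.09, adjusted p = 0.0239), whose probes gave 1.00, 0.24 and 0.32. Agpat1, the acyltransferase that makes phosphatidate, fell (-0.44 ± 0.09, adjusted p = 0.0443), with -0.41 and -0.47 at its probes. Fabp5, a fatty acid binding protein, had -0.41 ± 0.09 (adjusted p = 0.0560), and Pnpla2, the triglyceride lipase of fat droplets, 0.55 ± 0.24 (adjusted p = 0.197) with 1.98 on array 1C, without which it was at 0.11. Over all 7 lists without the 4 enzymes, 6 of 82 genes rose and 1 fell (8.54%, beside 7.11% of all rows). By limma 31 of the 82 had an unadjusted p under 0.05, and the median was 0.0965. Of these 7 calls, those of Cpt1a and Lipa alone were kept with the replicate block.

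Genes with the most similar ratios were found by the root mean square (RMS) difference over the 6 arrays, among 5613 other genes with values on all of them. They share dyes, arrays and sets with the enzymes, and the ranking is a description. For Idi1 they were Gla, Antxr1 and Hdac5, with RMS differences of 0.109 to 0.114; Fads1 ranked 110th, Sqle 621st and Acaca 4219th. For Sqle they were Pdpk1, Cldnd1 and Nnt, at 0.197 to 0.220, and all 3 had their highest ratio on 1C, as Sqle did (1.35, 1.76 and 1.41 there), and their lowest on 2C. For Fads1 they were Fundc2, Vps25 and Stt3b, at 0.0914 to 0.0977, with Idi1 ranked 591st and Sqle 3000th. For Acaca they were Mal2, Agfg1 and Foxc2, at 0.0637 to 0.0811. Of the 4 enzymes 0 had another among its 3 most similar genes. Nothing is read from that count, since 3 of 5613 genes is a small share and Acaca has the opposite sign.

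The labelled cell type could not be checked by level, because ratios give none. Of 10 smooth muscle markers 3 were measured, with Cnn1 at 0.59 ± 0.10 (adjusted p = 0.0280), Smtn at -0.05 and Cald1 at -0.12, a median of -0.053, and array medians of -0.219 to 0.256. Of 9 fibroblast markers 6 were measured; Thy1 (2.73 ± 0.21, adjusted p = 0.00411) and Mfap5 (0.81 ± 0.07, adjusted p = 0.0045) rose, and the median was 0.757, with array medians of 0.150 to 1.16. Of these 6 markers 4 had positive ratios, while Col1a1, a collagen chain, had -1.21 ± 0.31 (adjusted p = 0.0752) and Pdgfra -0.02 ± 0.14. Of 7 adipocyte markers 3 were measured and 0 passed (1 at an unadjusted p under 0.05 by limma), with a median of 0.126 and Pparg at 0.91 ± 0.25 (adjusted p = 0.0880). Of 8 epithelial markers 3 were measured, 1 rose, Cdh1 at 0.32 ± 0.06, and the median was 0.074. Of 8 macrophage and leukocyte markers 5 were measured and 0 passed (2 at an unadjusted p under 0.05 by limma), with a median of -0.166. Thy1, Mfap5 and Cdh1 moved in the same direction as Idi1, Sqle and Fads1, and the part of other cell types in those ratios was not tested. In such cultures a change in the mix of cells and a change of RNA per cell cannot be told apart.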

How the data were processed

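The authors hybridised 2AR-OE and NTG RNA together on 6 arrays, after reverse transcription and labelling with Cy3 or Cy5, per the labels' protocols. The deposited values are log2 ratios, 1 per probe and array, already centred by the authors; how the background was corrected, how values were normalized and which way the ratio runs is not given in the sources used here. Of 8734 probes the platform annotation gives 7540 1 symbol, 14 several and 1180 none, and 7493 matched RefSeq (GRCm38.p6) by Entrez ID. Where several probes had the same symbol, their mean on an array was used. A row needed at least 4 arrays, of both orientations, and the 6807 that had them were fitted with limma 3.58.1 (R 4.3.3), with a ratio and a dye coefficient and Benjamini-Hochberg adjustment. A further coefficient gave set 2 minus set 1. The fit was tested on simulated data. Spot intensities were not used here, so precision is limited by the number of arrays.

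The members and gene lists were chosen with earlier results of these data known. Named genes are the 4 enzymes, the genes of each list past the threshold, its 2 highest and 2 lowest, 21 fixed names where measured (10 were), and the 3 genes most similar to each enzyme. Mid1ip1 was named after its value was seen. Alternatives left out each array, used the set number as a random replicate block, dropped the dye coefficient, tested probes singly, set floor values to missing, scaled arrays, weighted arrays, changed the sign of 1C and 2C, or used only rows on all 6 arrays or the 4 arrays with 2AR-OE RNA in Cy5. Tables were made with pandas 2.3.3 and numpy 2.4.6 under Python 3.11.15, and figures with matplotlib 3.10.9.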

Additional observations from a re-analysis of the deposited data

Results flagged for a closer look

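Among the 4 arrays with 2AR-OE RNA in Cy5, 5 of the 40 named genes had 1 array far from the other 3, where chance alone flags about 1 group in 20. Fads2, the desaturase next to Fads1, was at 0.143 on array 1B and at -0.239 to -0.210 on the other 3. Fads3 was at 0.612 on array 1A and at 0.0487 to 0.0795 on the others. Gramd1a, a sterol transporter, was at -0.796 on array 1A and at -0.0747 to 0.0682 elsewhere. Rxra, the partner of liver X receptors, was at -0.965 on array 2B and at -0.0575 to 0.110 elsewhere. Stk11, the kinase that activates AMP kinase, was at 2.04 on array 1A and at 0.0832 to 0.385 elsewhere. For Idi1, Sqle, Fads1 and Acaca themselves 0 arrays stood out in this way.

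Fasn had opposite signs by dye orientation, with a mean of 0.0804 on the 4 arrays with 2AR-OE RNA in Cy5 and of -0.256 on the 2 with 2AR-OE RNA in Cy3. The dye coefficient, which tests that difference, was 0.17 ± 0.06 and did not pass (adjusted p = 0.244 by limma).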

How the results depend on the processing

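Fits without 1C or 2C leave 1 array with 2AR-OE RNA in Cy3, so only their ratios are used. Of the other alternatives, leaving aside the change of sign, Idi1 passed in all and Acaca in none. Sqle and Fads1 lost the call without 1A, 1B, 2A or 2B, with the replicate block and with array weights. They kept it without the dye coefficient, with scaled arrays and on the 4 arrays with 2AR-OE RNA in Cy5. Single probes, floor values set to missing and rows on all 6 arrays left the 4 ratios unchanged. Direction was kept in all 14 alternatives (Idi1 0.632 to 0.758). It could hardly change, since each gene had 1 sign on 6 of 6 arrays. With 1 array left out the fitted ratio ranged from 0.632 to 0.692 for Idi1, 0.613 to 1.21 for Sqle, 0.334 to 0.434 for Fads1 and -0.345 to -0.232 for Acaca. The number of rows past the threshold depended most on array 2C: without it 1689 rows passed over the whole table, against 169 to 250 without any other array and 484 over all 6. Without an array the number called ranged from 1 to 3 for sterol synthesis, 0 to 6 for fatty acid synthesis, 0 to 1 for SREBP and liver X receptor control, 1 to 6 for sterol uptake, 0 to 3 for isoprenoid genes, 1 to 6 for AMP kinase and malonyl-CoA control and 0 to 9 for acyl-CoA and phospholipid genes, each highest without 2C. The medians then ranged from 0.251 to 0.530, 0.0842 to 0.217, -0.00398 to 0.0932, 0.0881 to 0.190, 0.0341 to 0.171, 0.211 to 0.381 and -0.0363 to 0.0702 in the same order of lists. The upper end of each range of counts came from the fit without 2C, so it is not read as calls either. Whether the counts depend on array 2C itself cannot be told from that fit and was not tested.

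With the set number as a random replicate block (correlation 0.295) 197 rows passed and the ratios stayed as they were: 0.384 for Fads1 and 0.913 for Sqle no longer passed. The lists then had 1 call for sterol synthesis, 1 for sterol uptake and 0 for fatty acid and for phospholipid genes. With array weights, which ran from 0.418 for 1C and 2C to 5.01 for 2B, 194 rows passed, Fads1 (0.329) and Sqle (0.803) did not, the same lists had 1, 1, 0 and 0 calls, and the set difference of Acaca was -0.0122. Of the 10 named calls, 3 remained with the block, Cpt1a, Idi1 and Lipa, and the same 3 with weights. Sterol uptake had 4 calls without the dye coefficient. AMP kinase and malonyl-CoA control had 2 without the dye coefficient, 2 with floor values missing, 2 on rows with all 6 arrays and 3 with scaled arrays. SREBP control had 1 with probes tested singly and 1 with scaled arrays, and phospholipid genes 5 with probes tested singly.

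With the sign of 1C and 2C changed 1 row passed, and 0 genes did in any of the lists that had calls. The ratios were then 0.10 for Idi1 and 0.147 for Fads1, and with the sign turned 0.0629 for Acaca, -0.149 for Sqle, -0.00199 for Acss2, 0.216 for Agpat1 and -0.0210 for Cds2. The medians became -0.0977 for sterol synthesis, 0.0629 for fatty acid synthesis, -0.116 for AMP kinase and malonyl-CoA control and -0.0423 for phospholipid genes. Spot signals were not used here, so dim probes could not be told from bright ones.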
